A study of Mus musculus with 4 samples.

Results

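Dense clusters of LSD1 peaks are 100 kb stretches of the mouse genome in which the chromatin enzyme LSD1 was called at 10 or more places 2 days after the start of muscle differentiation. The autosomes, chromosomes 1 to 19, were divided into fixed windows of 100 kb, each peak was assigned to the window of its midpoint, and windows with at least 10 day 2 midpoints were taken. This gave 691 dense windows of the 11765 autosomal windows that held a day 2 midpoint (5.87%). They contained 8498 of the 43459 autosomal day 2 peaks and 3416 of the 17315 autosomal day 5 peaks. The windows were thus chosen by the number of day 2 midpoints, and day 2 numbers, spacing and runs are descriptions only. The day 5 list came from another library and had no part in the choice.

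The samples were C2C12 cells, an established mouse myoblast line that fuses into myotubes when serum is lowered. Medium with 2% horse serum started the differentiation. LSD1 was precipitated with a polyclonal antibody after 48 h of it (day 2, labelled differentiating) or after 120 h (day 5, labelled differentiated), and each time had an input library. The labels name no allele, knockdown or drug, and no group had another library. Differences between days thus have no replicate error and carry no p-value. Intervals are 95% intervals for counting error (Wilson for shares, order statistics for medians), and they treat neighbouring peaks as independent, which these peaks may not be.

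LSD1, the product of Kdm1a, is a flavin-dependent demethylase of mono- and dimethylated histone lysines. It works mainly in complexes with the CoREST scaffold and class I histone deacetylases, which silence promoters and enhancers, and it is also brought to active genes by transcription factors. Several neighbouring elements bound by the same factor, as in enhancer clusters and tandem gene families, are a common arrangement in mammalian genomes. No mm9 annotation or genome was used here, so windows are named by mm9 position and no sequence is printed.

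Dense windows were spread over every autosome, with the highest proportion on chromosomes 11 and 15. Chromosome 11 had 81 of them, which is 6.82% of the windows between its first and last peak, and chromosome 15 had 62 (6.18%). Chromosome 19 followed with 27 (4.64%) and chromosome 17 with 37 (4.01%). The lowest proportions were on chromosome 18 (12 windows, 1.37%), chromosome 14 (16, 1.39%) and chromosome 16 (14, 1.48%), and the median over chromosomes was 2.65%. On chromosome 15, 31.6% of the day 2 peaks and 30.6% of the day 5 peaks lay in dense windows, against 11.2% and 12.6% on chromosome 18. These proportions were not adjusted for the number of day 2 peaks on each chromosome. Copy number and read placement along these chromosomes were not analysed here.

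Most dense windows were only just dense. Of the 691, 216 held exactly 10 day 2 midpoints, 130 held 11 and 119 held 12, and the median was 11 (quartiles 10 to 13). The fullest held 27. Windows just outside and just inside the limit had similar values. The 271 windows with 9 midpoints had a median of 3 day 5 peaks, a median day 2 score of 107 and a median day 2 width of 686 bp. The 216 windows with 10 had a median of 4 day 5 peaks, a score of 110.5 and a width of 683.5 bp.

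**Figure D1:**
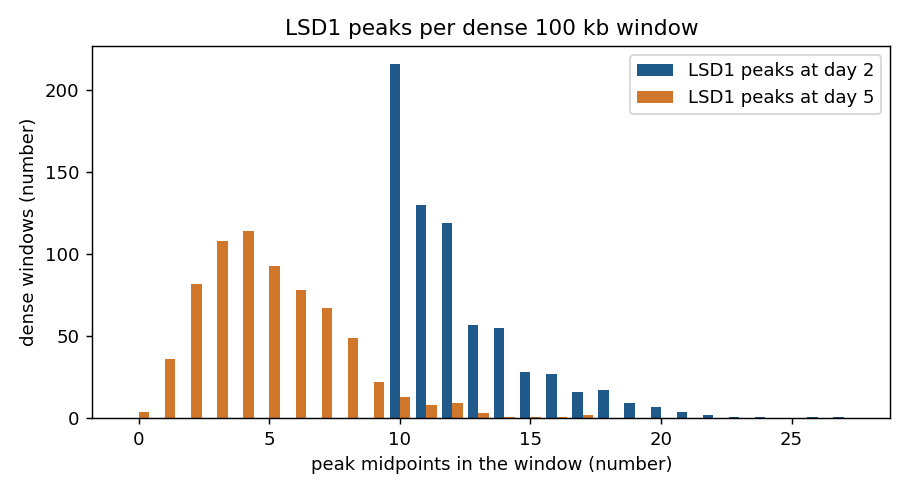
Number of dense windows (vertical axis) by the number of LSD1 peak midpoints they hold (horizontal axis), with day 2 in blue and day 5 in orange. Day 2 counts start at the limit of 10 and reach 27, and day 5 counts run from 0 to 17 with a median of 5.

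Neighbouring day 2 peaks of a dense window were mostly a few kilobases apart. The median distance from one day 2 midpoint to the next was 4225 bp (95% interval 4065 to 4380, 7807 distances, quartiles 1758.5 to 9385 bp). Their mean was 7041 bp. Of the distances, 28.5% were under 2 kb and 55.0% under 5 kb, while the largest gap of a window had a median of 23224 bp. The midpoints reached across most of a window, with a median span of 82.1 kb. At least 10 midpoints in 100 kb must lie close together, so these distances follow in part from the rule, and whether peaks were grouped within a window was not tested.

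Chains in which each midpoint lay less than 5 kb from the next were counted as a further description of these peaks. The longest chain of a window had a median of 4 peaks over 6.89 kb, and in 293 windows it had 5 or more. Chains of 10 or more peaks occurred in 14 windows. The longest, on chromosome 10 in the window 80800001 to 80900000, held 17 of that window's 26 day 2 peaks within 29.7 kb. The next held 15 of 22 peaks within 28.4 kb on chromosome 15 in the window 78600001 to 78700000. Edges of neighbouring peaks were often close as well, since 26.3% of the gaps from edge to edge were under 1 kb (25.4 to 27.3%). Whether such neighbours are separate sites or 1 broad site divided by the peak caller was not tested. Joining peaks less than 1 kb apart left 298 dense windows, all of them among the 691.

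Day 5 peaks, fewer in number, lay farther apart in the same windows. Their median midpoint distance was 7174 bp (6709 to 7647) and their mean 12859 bp, over 2729 distances in the 651 windows with at least 2 day 5 peaks. Under 1 kb lay 15.8% of the day 5 distances, against 10.1% of the day 2 distances. Several narrow day 5 peaks could share 1 broad day 2 peak. Of the day 2 peaks with a day 5 peak, 338 (12.3%, 11.1 to 13.6) held at least 2 of them in dense windows, and 11.2% (10.6 to 11.8) elsewhere.

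Dense windows tended to lie beside each other. They formed 522 runs of adjacent windows, of which 406 were single windows, 86 were pairs, 16 were triplets and 14 had 4 or more windows. In all, 285 windows (41.2%) had a dense neighbour. The adjacent window was dense in 24.5% of cases on each side, against 2.88% of all autosomal windows between first and last peaks. At 200 kb the share was 13.6% on each side, and at 1 Mb it was still 10.8%. A fixed border can divide 1 cluster between 2 windows, and its part in the share of adjacent windows was not tested. The window next to a dense one held on average 6.69 day 2 peaks on the left and 6.48 on the right, and 2.73 and 2.75 day 5 peaks. A distance of 1 Mb brought the day 2 mean to 3.76 and 3.74, still above the mean of 1.81 over all autosomal windows. The day 5 mean there was 1.56 and 1.51, against 0.721 over all windows. Windows in runs and single ones resembled each other at day 5. A day 5 peak overlapped 32.6% (31.0 to 34.1) of day 2 peaks in runs and 32.2% (30.9 to 33.5) in single windows.

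**Figure D2:**
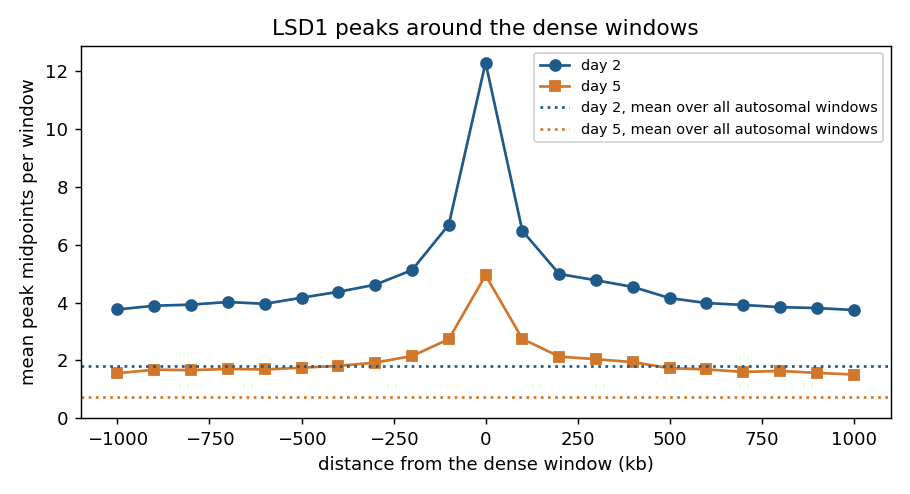
Mean number of LSD1 peak midpoints per 100 kb window (vertical axis) by distance from the dense window in kb (horizontal axis), day 2 in blue circles and day 5 in orange squares, with dotted lines at the mean over all autosomal windows. Both days peak at the dense window (12.3 and 4.94) and stay above their dotted lines at 1000 kb.

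The 2 longest runs lay almost end to end on chromosome 10. The first covered 79100001 to 79900000 with 8 dense windows, 115 day 2 peaks and 61 day 5 peaks. The second covered 80000001 to 80700000 with 7 dense windows, 88 day 2 peaks and 35 day 5 peaks. The window between them had 9 day 2 midpoints, 1 short of the limit, and 1 day 5 midpoint. With the full window at 80800001 to 80900000, which follows a window of 6, the stretch ran for 1800 kb. Of its 18 windows, 16 were dense. All 18 windows together held 244 day 2 peaks and 110 day 5 peaks. Of the day 2 peaks in the stretch, 84 (34.4%, 28.7 to 40.6) overlapped a day 5 peak. The fullest day 2 window of the stretch (26) had 8 day 5 peaks, its windows of 18 had 7 and 11, and its windows of 16 had 10 and 9. The extension of this stretch to the window of 26 was chosen after its values were seen.

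**Figure D3:**
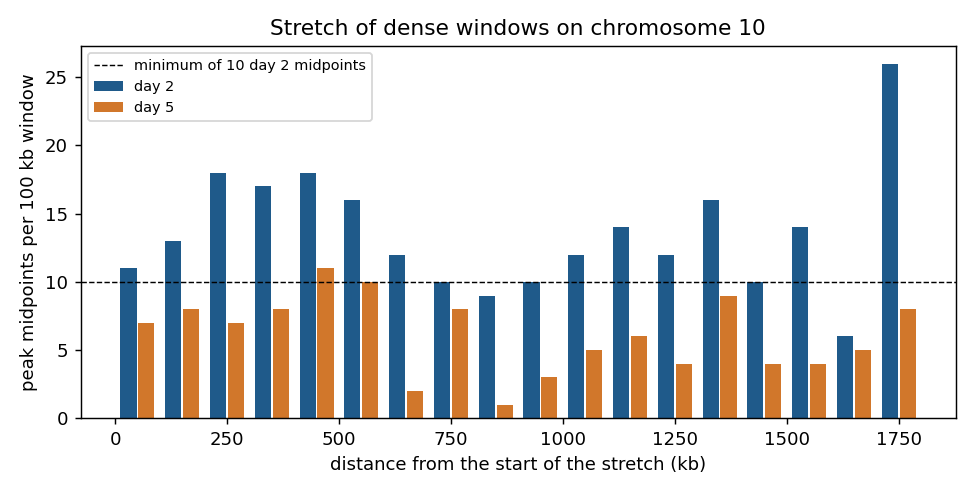
LSD1 peak midpoints per 100 kb window (vertical axis) along the chromosome 10 stretch, by distance from its start in kb (horizontal axis), day 2 in blue and day 5 in orange, with the limit of 10 dashed. Of the 18 windows, 16 reach the limit at day 2, and day 5 counts range from 1 to 11.

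The other 3 of the 5 longest runs were on chromosomes 1, 11 and 8. On chromosome 1, 137300001 to 137800000 held 76 day 2 and 27 day 5 peaks in 5 windows. Its windows had 11, 10, 27, 18 and 10 day 2 peaks and 1, 3, 15, 6 and 2 day 5 peaks, so 15 of the 27 day 5 peaks were in the fullest window. On chromosome 11, 102800001 to 103300000 held 64 and 21 peaks in 5 windows and was followed by 2 windows with no peak on either day. On chromosome 8, 73000001 to 73400000 held 59 and 29 peaks in 4 windows. The share of day 2 peaks with a day 5 peak was 39.1% (30.7 to 48.3) and 33.0% (24.0 to 43.3) in the chromosome 10 runs, 27.6% (18.8 to 38.6) on chromosome 1, 26.6% (17.3 to 38.5) on chromosome 11 and 35.6% (24.6 to 48.3) on chromosome 8. These intervals all overlap.

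Peaks in dense windows were only slightly stronger and broader than peaks elsewhere. Scores are as the authors deposited them and are compared within 1 list. At day 2 its median was 112 (109 to 114, quartiles 70.96 to 204) in dense windows and 104 (102 to 105, quartiles 68.0 to 186) elsewhere. Median widths were 693 bp (682 to 703) and 658 bp (654 to 663). At day 5 the median score was 74.4 (72.7 to 75.9) against 71.8 (71.4 to 72.6), and the median width 342 bp (337 to 348) against 329 bp (326 to 331). Day 5 values come from the library that did not choose the windows, but they are tied to the choice through overlap with day 2 peaks. Of day 5 peaks, 90.5% overlapped a day 2 peak in dense windows and 85.1% elsewhere. Among those that did, the median score was 77.3 in dense windows and 77 elsewhere, and the median width 359 and 349 bp. Among the rest, these medians were 56.4 and 57.2, and 240.5 and 238 bp. The day 5 differences are thus a description only. The top decile of the day 2 score took in 11.6% (10.9 to 12.3) of dense-window peaks and 9.62% (9.31 to 9.93) of the others. Day 2 peaks of at least 2 kb were 179 (2.11%, 1.82 to 2.43) in dense windows and 1.38% (1.27 to 1.51) elsewhere.

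The highest day 2 score in a dense window was 1918, and among the more numerous peaks elsewhere on the autosomes it was 3100. The peak of score 1918, on chromosome 4 at 135732788 to 135734395, stood in a window of 11 day 2 and 7 day 5 peaks, and the highest day 5 score of any dense window, 841, was in the same window. Of the 691 windows, 174 had no day 2 peak of the top decile. Scores within a window ranged widely. The highest of a window had a median of 449 and the lowest a median of 53.3, close to the list's lowest value of 50. From the highest place to the tenth, the median score went down to 63.3.

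Day 5 peaks were present in nearly every dense window. A day 5 midpoint was found in 687 of 691 (99.4%), against 64.7% of all autosomal windows with a day 2 midpoint. The share was 33.9% in windows with 1 day 2 peak, 66.0% with 2 to 4 and 90.1% with 5 to 9. The number of day 5 peaks per dense window ran from 0 to 17, with a median of 5 (quartiles 3 to 7), and windows with 1 to 9 day 2 peaks had a median of 1 (quartiles 0 to 2). At least 5 day 5 peaks lay in 347 dense windows (50.2%), where 5.85% of all occupied windows had as many. At least 10 lay in 38 (5.50%, against 0.331%), and these 38 were all but 1 of the 39 autosomal windows with 10 or more day 5 peaks. Most day 5 peaks overlap a day 2 peak, so windows chosen for many day 2 peaks also hold more day 5 peaks. These contrasts thus follow in part from the choice and are a description only.

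In proportion, the dense windows had a similar weight in both lists. They took 19.6% (19.2 to 19.9) of autosomal day 2 peaks and 19.7% (19.1 to 20.3) of autosomal day 5 peaks. There were 40.2 day 5 peaks per 100 day 2 peaks in dense windows and 39.8 per 100 elsewhere. After peaks less than 1 kb apart were joined, the ratio of day 5 to day 2 peaks was higher in dense windows, at 0.433 (0.407 to 0.461) against 0.398 (0.390 to 0.406). Over classes of day 2 count the figure was 41.0 for windows with 1, 39.2 for 2 to 4, 38.6 for 5 to 9, 38.8 for 10 to 12, 42.6 for 13 to 15 and 41.7 for 16 to 27. Across the 691 windows, day 2 and day 5 counts had a Spearman rho of 0.41 and a Pearson r of 0.49, given as a description only, since the windows share 2 libraries and a lower limit on the day 2 count. In 5 windows the days had equal numbers, and in 1 the day 5 number was higher (16 against 15, chromosome 8, 86700001 to 86800000).

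At equal score, day 2 peaks in dense windows met a day 5 peak about as often as day 2 peaks elsewhere. In dense windows 2748 day 2 peaks (32.3%, 31.4 to 33.3) had an overlapping peak at day 5 (1 bp or more), against 30.2% (29.7 to 30.7) elsewhere and 30.6% of all autosomal day 2 peaks. When peaks elsewhere were weighted to the score deciles of the dense windows, their share was 32.3%, and they gave 2748 peaks, the number observed. In the lowest decile 6.13% (4.63 to 8.08) of dense-window peaks and 5.98% (5.25 to 6.80) of the others had a day 5 peak. In the highest these shares were 85.9% (83.6 to 87.9) and 86.1% (84.9 to 87.2). Dense windows had the higher share in 5 of the 10 deciles and the lower in 5, and no decile differed by more than 1.64 percentage points. Joined peaks gave 37.4% in dense windows and a weighted 36.5% elsewhere. The 1 kb distance rule was the exception, with 41.5% and a weighted 36.5%. That rule also counts a day 5 peak that sits on a close neighbour. The nearest other day 2 midpoint lay at a median of 2296.5 bp in dense windows and 7358 bp elsewhere. Weighting to score does not even out this closeness, which comes with the choice of windows, and its part in the difference was not tested.

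**Figure D4:**
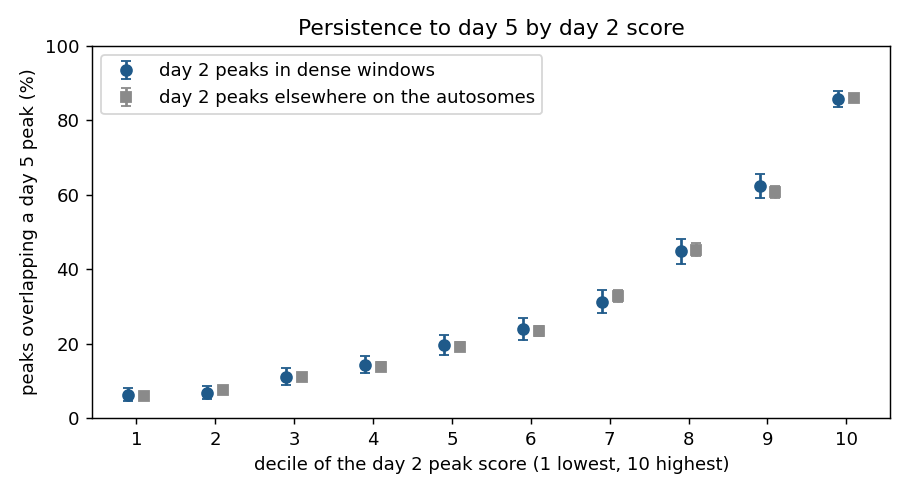
Share of day 2 LSD1 peaks that overlap a day 5 peak, in percent (vertical axis), by decile of the day 2 score (horizontal axis), in dense windows (blue circles) and elsewhere on the autosomes (grey squares), with Wilson 95% intervals. The 2 series lie within 1.64 percentage points of each other in each decile and rise from about 6% to 86%.

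Inside a dense window the order of scores went with persistence to day 5. Persistence rose with score outside dense windows as well, from 5.98% in the lowest decile to 86.1% in the highest. The peak of highest score overlapped a day 5 peak in 552 windows (79.9%, 76.7 to 82.7), where 49.4% of all occupied windows had such a leading peak. A leading peak of many is stronger than a leading peak of few, so this contrast is partly set by the choice of windows. The share was 67.4% for the second place, 43.7% for the fourth, 28.1% for the sixth and 12.3% for the tenth, as the median score went from 298 through 179 and 121 to 63.3. The lowest peak of a window had a day 5 peak in 46 windows (6.66%, 5.03 to 8.77). The strongest day 5 peak sat on the strongest day 2 peak in 305 of 687 windows (44.4%, 40.7 to 48.1).

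Neighbouring peaks of a window went together only weakly. After a day 2 peak with a day 5 partner, the next peak of the window had one in 34.6% of cases (32.8 to 36.5), and after a peak without one in 31.7% (30.5 to 33.0). Pairs were pooled over windows with differing shares and were not weighted to score. The part of either in this gap was not tested. By distance to the nearest other day 2 midpoint, the share was 28.0% (25.8 to 30.4) under 1 kb and 33.8% (31.9 to 35.7) from 1 to 2 kb. It was 34.2% (32.4 to 36.1) from 2 to 5 kb, 32.1% (29.7 to 34.5) from 5 to 10 kb and 30.4% (27.2 to 33.9) at 10 kb or more. Peaks elsewhere had a similar pattern, with 24.6%, 32.1%, 31.9%, 30.9% and 29.7% in the same order. Peaks with a neighbour under 1 kb away were also weaker, with a median score of 91.9 against 124 at 1 to 2 kb. Elsewhere these scores were 88.2 and 114.

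Day 5 peaks had a day 2 partner more often where day 2 peaks were more numerous. The share in dense windows was 90.5% (89.5 to 91.5), or 3092 of 3416, against 85.1% (84.5 to 85.7) elsewhere and 86.2% of all autosomal day 5 peaks. It was 78.6% (76.3 to 80.7) in windows with 1 day 2 peak, 86.1% (85.2 to 87.0) with 2 to 4, 88.6% (87.8 to 89.3) with 5 to 9, 89.1% (87.7 to 90.4) with 10 to 12, 91.4% (89.2 to 93.1) with 13 to 15 and 93.7% (91.5 to 95.3) with 16 to 27. The share thus went up with the day 2 count below the limit as well as above it. The number of day 2 peaks, which offers the partners, is also what chose the windows, so this is a description. Weighting the day 5 peaks elsewhere to the day 5 score deciles of the dense windows gave 85.8%. Day 2 peaks covered a median of 9.23% of a dense window and 1.15% of the length outside them. The part of this coverage in the difference was not tested. The 324 day 5 peaks without a day 2 partner were weak and narrow, with a median score of 56.4 and a median width of 240.5 bp. Those elsewhere were alike, with medians of 57.2 and 238 bp. Where the days overlapped, the day 2 peak was a median of 2.65 times as wide (2.58 to 2.71) in dense windows and 2.57 times (2.54 to 2.60) elsewhere, and the day 5 peak lay wholly inside in 88.7% and 88.3% of pairs.

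The fullest day 2 window, on chromosome 1 at 137500001 to 137600000, was a string of mostly weak peaks. Its 27 day 2 peaks had scores from 57.8 to 640.5 with a median of 83, below the dense-window median of 112. The strongest, at 137584161 to 137585480, had a day 5 peak of score 161 inside it. The next were at 137564779 to 137565940 (score 357.5) and 137571573 to 137572805 (score 357), and each held 2 day 5 peaks. In all, 11 of the 27 had a partner at day 5, and their scores gave 7.41, and 14 of its 15 day 5 peaks had a day 2 partner. By general knowledge of this part of chromosome 1, it carries genes of the muscle troponin complex, but no annotation was used to place them relative to the window.

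On chromosome 10 at 80800001 to 80900000, 26 day 2 peaks left 7 with a day 5 peak, close to the 7.90 given by score. Its strongest peak, at 80892040 to 80894877, had a day 2 score of 869 and only a weak day 5 peak of score 56.4. The peak at 80879185 to 80880313, with the second highest score of the window (518), had none. In the chromosome 14 window 26300001 to 26400000, 8 of 24 had a day 5 peak and scores gave 8.67. The next window but one, 26500001 to 26600000, kept 4 of 21 where scores gave 5.95. The window on chromosome 4 at 132600001 to 132700000 kept 3 of 21 where scores gave 6.25, and its 4 day 5 peaks had scores of at most 70.4. Similar crowding at day 2 thus went with day 5 numbers from 4 to 17 among the 10 fullest windows.

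At day 5 the fullest windows were on chromosomes 15 and 13, with 17 peaks each. That on chromosome 15, 78600001 to 78700000, held 22 day 2 peaks with scores from 52.3 to 1442 and 7 peaks of the top decile. The strongest, at 78663910 to 78666255, contained 4 day 5 peaks, and the broad peak at 78672634 to 78676040 (3407 bp) overlapped 3. Of the 22, 11 had a day 5 peak and scores gave 10.5. The many day 5 peaks of this window thus came with strong day 2 peaks, some of which held several of them.

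The chromosome 13 window, 23600001 to 23700000, stood further from its scores than any other dense window. Of its 18 day 2 peaks, 13 met a day 5 peak and scores gave 8.42, and all 17 of its day 5 peaks had a day 2 partner. Day 5 scores were also high there, with a median of 121 against 74.4 over all dense windows. The highest day 5 score, 287, was at 23673062 to 23673940 inside the strongest day 2 peak of the window (score 819.7). The second highest day 5 score of the window, 273, was at 23636245 to 23636540. By general knowledge the largest cluster of replication-dependent histone genes, which supply histones during S phase, lies in this part of chromosome 13. The files do not place single genes in the window. As a member picked out for the largest of 691 differences, this window is a description and not evidence of a particular behaviour.

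**Figure D5:**
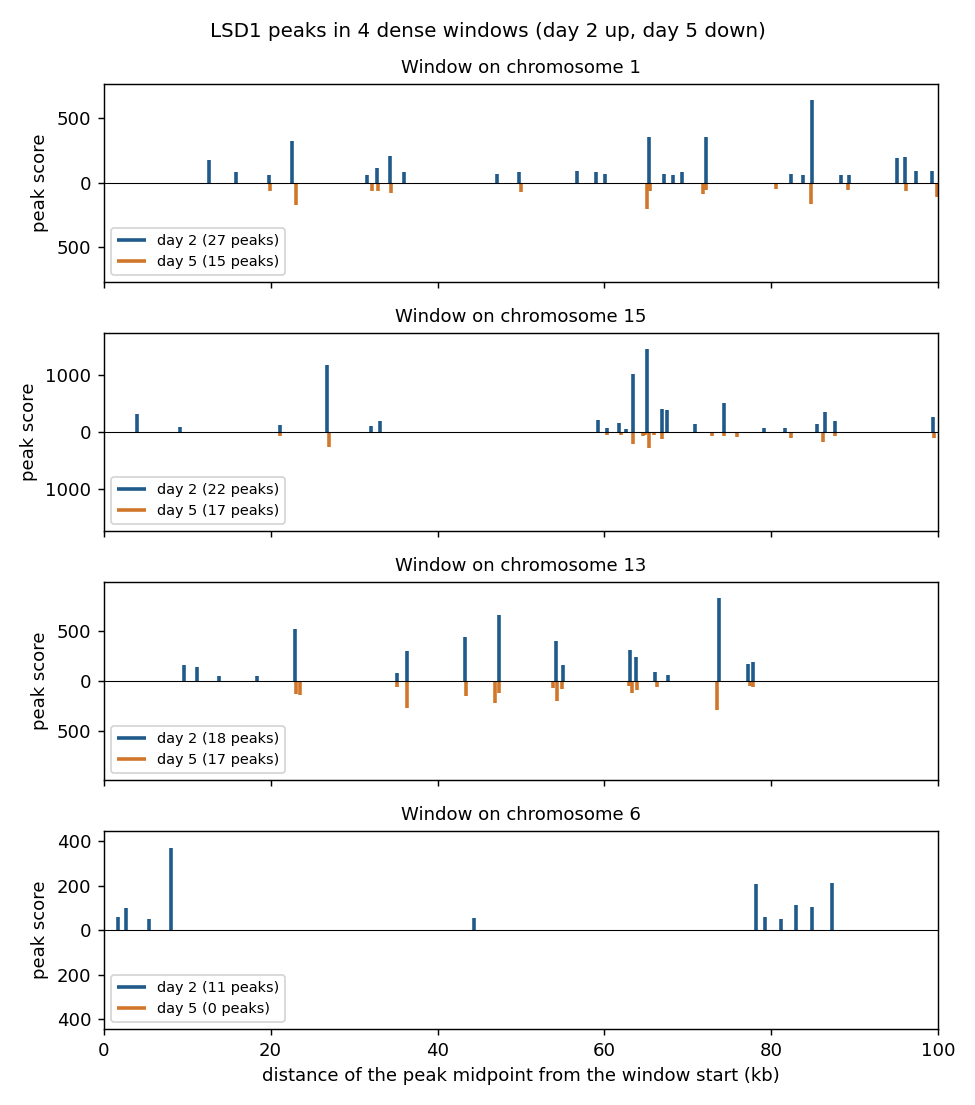
Score of each LSD1 peak (vertical axis, day 2 upwards in blue, day 5 downwards in orange) by the distance of its midpoint from the window start in kb (horizontal axis) in 4 dense windows. Scores of separate lists need not be on 1 scale. The chromosome 1, 15 and 13 windows carry 15, 17 and 17 day 5 peaks mostly under day 2 peaks, and the chromosome 6 window carries 11 day 2 peaks and no day 5 peak.

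Other windows were picked for a high share of day 2 peaks with a day 5 peak or for many day 5 peaks. Their high values thus follow in part from the choice and are a description only. The highest share, 10 of 13 (76.9%), was on chromosome 8 at 86500001 to 86600000, where scores gave 5.85. It was followed by 9 of 12 on chromosome 15 at 79700001 to 79800000 (scores gave 4.74), 8 of 11 on chromosome 2 at 91800001 to 91900000 (6.11) and 10 of 14 on chromosome 11 at 100200001 to 100300000 (6.83). The window with more day 5 than day 2 peaks, on chromosome 8 at 86700001 to 86800000, held a day 2 peak of 4729 bp at 86724278 to 86729006 that overlapped 3 day 5 peaks. A further 3 day 2 peaks of this window overlapped 2 day 5 peaks each. On chromosome 2 at 167400001 to 167500000, 12 of 19 had a day 5 peak and scores gave 7.92. On chromosome 17 at 29500001 to 29600000 it was 9 of 13, and scores gave 5.97. Not all windows with many day 5 peaks stood far above their scores. On chromosome 11 at 117800001 to 117900000, with 12 day 5 peaks, it was 9 of 19, and scores gave 8.54.

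At the other end, 4 dense windows had no day 5 midpoint and 118 had 1 or 2. The 4 were on chromosome 6 at 108400001 to 108500000 (11 day 2 peaks), chromosome 2 at 32200001 to 32300000 (10), chromosome 8 at 46600001 to 46700000 (10) and chromosome 12 at 53900001 to 54000000 (10). Scores gave 2.72, 3.03, 1.98 and 3.87 peaks with a partner in them. The windows were picked for having no day 5 midpoint, so this shortfall follows from the choice and is a description only. The chromosome 12 window was the strongest of the 4, with day 2 scores from 62.4 to 353 and a median of 154, above the dense-window median. Its leading peak, at 53936194 to 53937824, was 1631 bp wide. On chromosome 6 the leading peak, at 108407496 to 108408736, had a score of 372, and 6 others formed a chain of 9.04 kb near the far end of the window. In 3 more windows a day 5 midpoint was present but no day 2 peak overlapped a day 5 peak: chromosome 3 from 121000001, chromosome 7 from 133900001 and chromosome 11 from 69500001, each with 11 day 2 peaks.

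Per window, the number with a partner at day 5 was above the number given by score in 334 windows and below it in 357. The difference had quartiles of -1.07 and 1.06 peaks and ran from -4.29 to 4.58. The lowest was on chromosome 17 at 29100001 to 29200000, where 1 of 16 met a day 5 peak and scores gave 5.29. Picked as the lowest of all dense windows, it is a description only. By share, windows had a median of 30% of day 2 peaks with a day 5 peak (quartiles 20 to 41.7%). In 102 windows at least 50% had one, and in 7 none had.

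Chromosomes differed modestly in this respect. In dense windows the share of day 2 peaks with a day 5 peak ranged from 26.4% (21.0 to 32.6) on chromosome 14 to 39.1% (35.7 to 42.5) on chromosome 15. It was higher than elsewhere on the same chromosome for 14 of 19. These shares were not weighted to score. Over all autosomes, weighting took the share elsewhere to the 32.3% of dense windows. On chromosome 15 the shares in and outside dense windows were 39.1% and 38.9%. On chromosome 13 they were 37.9% (32.0 to 44.2) and 26.4% (24.3 to 28.6), and on chromosome 18 they were 37.0% (29.8 to 44.9) and 27.4% (25.0 to 30.0). The dense windows of chromosome 13 include the window picked above as furthest from its scores. Without chromosome 15, the overall shares were 31.7% (30.6 to 32.7) and 29.8% (29.3 to 30.2).

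Dense windows also crossed 2 longer stretches, on chromosomes 15 and 8. From 71 to 91 Mb of chromosome 15, 31 of 200 windows were dense, with 401 day 2 and 205 day 5 peaks, and 40.1% (35.5 to 45.0) of the day 2 peaks had a day 5 peak, against 42.3% (38.0 to 46.7) in the other windows of the stretch. From 79 to 99 Mb of chromosome 8 there were 10, with 126 and 94 peaks and a share of 53.2% (44.5 to 61.7), against 42.7% (38.0 to 47.5) in its other windows. All these shares were above the 32.3% of dense windows and the 30.6% of all autosomal day 2 peaks. Both stretches lie outside the rule for named windows and come from the same peak lists, so this is a description only. The chromosome 8 stretch includes the windows from 86500001 and 86700001 picked above. No weighting to score was made. The median day 2 score in the dense windows was 125 on the chromosome 8 stretch and 114 on the chromosome 15 stretch, against 112 in all dense windows.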

How the data were processed

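LSD1 ChIP-seq peak lists were analysed from 1 library at day 2 and 1 at day 5; the 2 input libraries were not analysed here. Sample titles gave the groups. MACS in Galaxy made the peak lists, per the file headers. Bowtie2, deepTools and the build mm9 are named, without versions, in the submitters' processing notes. The caller's version, its cutoff and any use of the input are not stated in these sources. The deposited values are the peak position in bp and the peak score, whose scale the headers do not state. Its lowest value was 50 in both lists. Read depth is unknown.

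A peak belonged to the window of its midpoint, and starts are printed counted from 1. Peaks were called overlapping at 1 bp or more. The number "given by score" sums, over the day 2 peaks of a window, the share with a day 5 peak among autosomal peaks outside dense windows in the same score decile. "Elsewhere" means autosomal peaks outside dense windows. Named windows were the 10 fullest of each day, the 5 longest runs, windows with no day 5 midpoint and the 5 highest and lowest shares with a day 5 peak, ties going to the window with more day 2 peaks. The windows and lists were chosen with earlier results of these data known. Counting was tested on simulated data. Alternatives covered the limit (8 or 12), a grid moved by 50 kb, joined peaks, score, width and overlap. The gene table at hand is of another build, GRCm38.p6, so the planned gene lists and sequences were not run. Tables were handled with pandas 2.3.3 and NumPy 2.4.6 in Python 3.11.15, intervals came from SciPy 1.17.1 and figures from Matplotlib 3.10.9.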

Additional observations from a re-analysis of the deposited data

How the results depend on the processing

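Of 132 alternative values for 21 results, 73 stayed within the interval of the main value (counts within 1.5 times) and 59 moved; shares and medians cannot change sign. Moving the grid by 50 kb and leaving out peaks wider than 5 kb moved none of their 21 values each. A limit of 8 gave 1351 windows with 32.3% of day 2 and 32.3% of day 5 peaks, 97.8% of windows with a day 5 midpoint, a spacing of 4893 bp, 266 runs of at least 2, a longest run of 16 and 76.1% of leading peaks with a day 5 peak. A limit of 12 gave 345 windows with 11.3% and 11.8% of peaks, 100% with a day 5 midpoint, a median of 6 day 5 midpoints, a spacing of 3747 bp, 39 runs, 33.5% of day 2 peaks with a day 5 peak and 83.8% of leading peaks with one. Joining peaks less than 1 kb apart gave 298 windows with 8.74% and 9.45% of peaks, 100% with a day 5 midpoint, a day 5 to day 2 ratio of 0.433 in dense windows and 0.398 outside, a spacing of 6083 bp, 33 runs (longest 4), shares with a day 5 peak of 37.4% in dense windows, 32.8% outside and 83.9% for leading peaks. Median day 2 scores were then 125 and 111 (dense and outside), day 2 widths 809 and 714 bp, day 5 scores 77.4 and 74.5 and day 5 widths 380.0 and 353 bp. With peaks at or above the median score of their list, in the same windows, 20.6% of day 2 and 20.6% of day 5 peaks were in dense windows, 90.7% had a day 5 midpoint, the median was 2 day 5 midpoints, the spacing 7615 bp, 31.7% of day 2 peaks outside had a day 5 peak and 65.3% of leading peaks did. Scores were then 196 and 188 at day 2 and 104 and 103 at day 5, and widths 916 and 901 bp and 431 and 422.5 bp. Requiring 50% of both peaks to overlap left 9.81% in dense windows, 9.68% outside and 19.2% of leading peaks. Counting peaks up to 1 kb away gave 41.5% and 34.4%. Weighting to score deciles moved the outside share to 32.3%; added after seeing the data, it gave 36.5% for joined peaks and 36.5% for the 1 kb distance. More or fewer windows under other limits follow from the rule. Some other directions are also fixed by the setting. Shares with a day 5 peak cannot rise under the 50% rule or fall under the 1 kb rule. Leaving out the weaker peaks in the same windows cannot lower median scores or raise day 5 numbers per window. For the remaining moves, the cause was not tested. No paired analysis was possible because each group had 1 library. Without replicates or read totals, differences between the days cannot be set against error between cultures.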
